A study of Mus musculus with 3 samples.

Results

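Classical monocytes were selected on the measured RNA counts of each cell in droplet single-cell data of mouse peripheral blood mononuclear cells. A barcode was kept as a cell with at least 500 unique molecular identifiers (UMIs, counts of captured RNA molecules), at least 250 genes and at most 10% of its UMIs from mitochondrial genes. It was called a classical monocyte when it held at least 3 of the 6 genes Ccr2, F13a1, Fn1, Ms4a6c, Csf1r and Vcan, at least 1 UMI of Ly6c2, at most 1 UMI of the T cell receptor complex genes Cd3d, Cd3e and Cd3g together, at most 1 UMI of the B cell gene Cd79a, and at most 2 of the 7 non-classical monocyte genes Ear2, Treml4, Ace, Eno3, Adgre4, Fabp4 and Cd300e. This rule found 744 cells among 31064 kept barcodes. The mice were C57BL/6 throughout. The study compared 3 libraries, 1 each from young mice given phosphate-buffered saline (PBS) for 1 month, aged mice given PBS for 1 month, and aged mice given AA for 1 month, the AA of the labels being ascorbic acid by the title of the series. The labels give the ages only as young and aged, and give neither the number of mice behind a library nor the route of dosing. The cells were collected by density separation of 1 to 2 ml of blood, a step that is meant to leave most granulocytes and red cells behind. With 1 library per group there is no replicate, so differences between libraries have no test, and every interval given is a 95% exact interval that covers counting error only.

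Classical monocytes are the Ly6C-high monocytes of mouse blood. They leave the bone marrow through the chemokine receptor CCR2, enter inflamed tissue, where they become macrophages and dendritic cells, and those that stay in the blood can convert into non-classical, Ly6C-low monocytes that patrol the vessel wall and depend on the nuclear receptor NR4A1. Their RNA carries lysozyme, secreted lectins and calcium-binding S100 proteins, and a part of them carries neutrophil-like granule genes or, in others, MHC class II genes like those of dendritic cells.

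The cells came almost wholly from 1 library. The young library held 2 classical monocytes among 9147 kept barcodes, 0.0219% (0.00265 to 0.0790). The aged library held 721 among 10204, 7.07% (6.58 to 7.58). The aged library given AA held 21 among 11713, 0.179% (0.111 to 0.274). The share in the aged library was thus 323 times that of the young library (89.1 to 2674), and the share with AA was 0.0254 of that in the aged library (0.0156 to 0.0391). The label of the class rests on measured values, so these shares describe the libraries and were not tested.

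Other myeloid cells followed the same order of libraries with smaller ratios. Non-classical monocytes, called by at least 3 of the 7 non-classical genes with Csf1r, made up 48, 553 and 98 cells in the young, aged and aged+AA libraries, or 0.525%, 5.42% and 0.837% of kept barcodes. Their share was 10.3 times higher in the aged than in the young library (7.68 to 14.2) and with AA 0.154 of that in the aged library (0.123 to 0.192). Neutrophils numbered 14, 866 and 178, with an aged to young ratio of 55.4 (32.9 to 102) and an AA to aged ratio of 0.179 (0.152 to 0.211). The number of classical monocytes per non-classical monocyte was 0.0417 in the young library (0.00491 to 0.159), 1.30 in the aged library (1.17 to 1.46) and 0.214 with AA (0.127 to 0.346). Within the monocytes, classical cells were therefore the larger class only in the aged library given PBS, and the 3 intervals did overlap between the young and the AA library but not with the aged one.

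**Figure D1:**
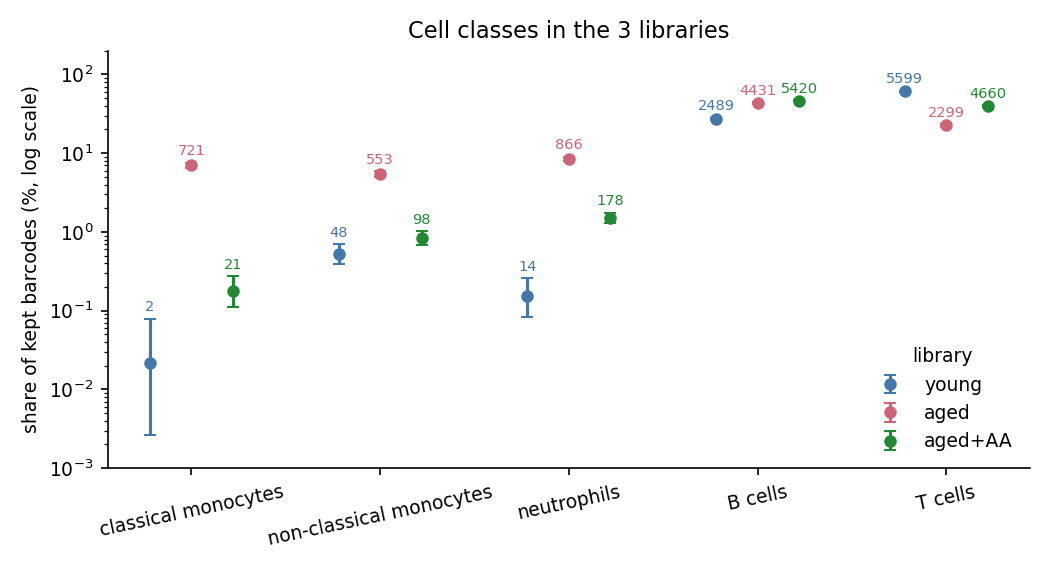
Percent of kept barcodes (log axis) in each cell class, by library, with 95% exact intervals for counting error and the number of cells beside each point. Classical monocytes span 0.0219% to 7.07%, the widest range of the classes drawn.

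RNA outside cells gave a measure of the same libraries that the rule did not use. It was read from barcodes ranked by UMIs well below the cells, down to rank 90000, which held 11 to 20, 36 to 79 and 28 to 57 UMIs each in the young, aged and aged+AA libraries. Ccr2 made up 7.11, 136 and 21.1 counts per 1000000 UMIs (CPM) of this free RNA in the young, aged and aged+AA libraries. Chil3, the chitinase-like lectin Ym1, made up 7.11, 346 and 15.6 CPM, and Lyz2, lysozyme, 189, 3691 and 235 CPM. F13a1 made up 2.84, 79.2 and 1.51 CPM. Ly6c2 differed less, at 118, 201 and 165 CPM. For each of these genes the aged library was the highest, so its free RNA was richer in these RNAs. Chil3 and Lyz2 were also found in neutrophils, so they do not stand for monocytes alone. Whether blood count, the density separation or the loading of cells set these shares was not tested, and with 1 library per group they cannot be told apart from age and AA.

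The libraries held 64496639, 94944551 and 80424480 UMIs in all. An aged classical monocyte had a median of 10014 UMIs (1350 to 36101) and 2848 genes, and 1 from the AA library a median of 9187 UMIs (4956 to 18548) and 2691 genes, so the 2 sets were of like depth. Aged non-classical monocytes had a median of 5068 UMIs and neutrophils 2363.5. Some barcodes were kept in more than 1 library: 27 were shared by young and aged, 33 by aged and aged+AA and 28 by young and aged+AA. Of the aged classical monocytes 5 had a barcode that was also kept in the AA library, and none was classical in both. Without the shared barcodes the shares were 7.06% and 0.180%. Scrublet called 10 of the 721 aged cells doublets and 0 of the 21 AA cells, and all were left in. Free RNA was estimated at 1.20% of the UMIs of aged classical monocytes, 1.23% in those with AA and 2.24% in aged non-classical monocytes.

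The markers stood as the name classical monocyte implies. In the aged library Ly6c2, the gene of the Ly6C antigen, stood at 1208 CPM in classical monocytes, 215 in non-classical monocytes and 216 in neutrophils. Ccr2 stood at 932, 182 and 6.24 CPM in the same 3 classes, F13a1, the clotting factor XIII subunit, at 871, 148 and 7.63, Fn1, fibronectin, at 1132, 168 and 6.59, and Vcan, the proteoglycan versican, at 288, 47.1 and 2.08. The gate used these genes, so their levels are no finding. Chil3 was the only marker outside the gate. It reached 2082 CPM in aged and 2012 CPM in AA classical monocytes against 586 in non-classical monocytes and 523 in neutrophils, 3.55 times the level of non-classical monocytes (3.40 to 3.72). With each cell thinned to 1000 UMIs, at least 1 Chil3 UMI was found in 68.0% of classical monocytes, 18.8% of non-classical monocytes, 9.48% of neutrophils, 1.20% of B cells and 1.44% of T cells (before thinning 84.3% of classical monocytes). The last 2 lineages do not express it, and their shares stand for free RNA.

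At the edges of the gate, 483 of the 721 aged cells held all 6 identity genes, 189 held 5, 33 held 4 and 16 held 3. Just outside, 19 aged barcodes and 4 from the AA library met every other condition with 2 identity genes. A Ly6c2 count of 0 kept out 28 aged barcodes and a count of 1 let in 18, and the median was 11 UMIs. None of the 7 non-classical genes was found in 384 aged cells, 1 in 234 and 2 in 103, while 34 barcodes met every other condition with 3. The limits on UMIs and genes removed no barcode that met the rest of the rule, and the mitochondrial limit removed 1 young and 1 aged barcode.

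Markers of other cells were present at various summed levels. Summed over the lists, aged classical monocytes (AA in parentheses) held 1164 CPM of non-classical markers (1394), 485 of dendritic cell markers (506), 248 of B cell markers (250), 120 of macrophage markers (91.9), 92.9 of platelet markers (15.3), 52.3 of T and NK cell markers (35.8) and 7.96 of basophil and mast cell markers (0). Xcr1, which defines type 1 dendritic cells, was at 0, as were the tissue macrophage genes Vcam1, Timd4 and Marco and the basophil protease Prss34. The neutrophil list stood at 1140 CPM in aged and 174 CPM in AA cells, and the erythroid list at 43294 and 41220 CPM. Per cell the neutrophil list ranged from 0 to 37686 CPM with a median of 434 in aged cells, and from 0 to 747 with a median of 108 in AA cells. The erythroid list ranged from 739 to 523277 CPM, median 3230, in aged cells and from 622 to 421447, median 1412, in AA cells. In both lists the highest cells lay far above the median, and they are described further on.

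Lyz2 was the most abundant RNA of the aged classical monocytes, closely followed by the haemoglobin gene Hbb-bs at 24176 CPM. Lyz2 took 24259 CPM in aged and 28983 CPM in AA classical monocytes, against 8552 in non-classical monocytes and 4056 in neutrophils, a level 2.84 times that of non-classical monocytes (2.80 to 2.87). Below the genes for actin and thymosin and Malat1, the antiviral membrane protein Ifitm3 stood at 6064 and 6251 CPM in aged and AA cells, the interferon-induced Ifi27l2a at 5027 and 3881, and Plac8 at 4094 and 4173. S100a6, a calcium-binding protein, stood at 4076 and 3212 CPM and Tyrobp, the signalling adaptor DAP12, at 3605 and 3412 CPM. Tmsb10, an actin-binding thymosin, was higher in classical (6936 CPM) than in non-classical monocytes (3346) and neutrophils (380.2), and the nuclear RNA Malat1 was lower in classical (6762) than in non-classical monocytes (18090.5).

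Against the non-classical monocytes of the aged library, classical monocytes had more RNA of most interferon-response genes and of S100, annexin and galectin genes, and less of homing and adhesion genes. Of 10113 genes with at least 20 UMIs in both classes together, 1582 (15.6%) were at least 2-fold apart, 695 higher (6.87%) and 887 lower (8.77%) in classical monocytes, and the median log2 ratio over all of them was -0.07. Both classes came from 1 library and were cut from the same measured cells, so the ratios describe these 721 and 553 cells and have no test. The counts of list members in this contrast leave out the genes that the gate used.

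**Figure D2:**
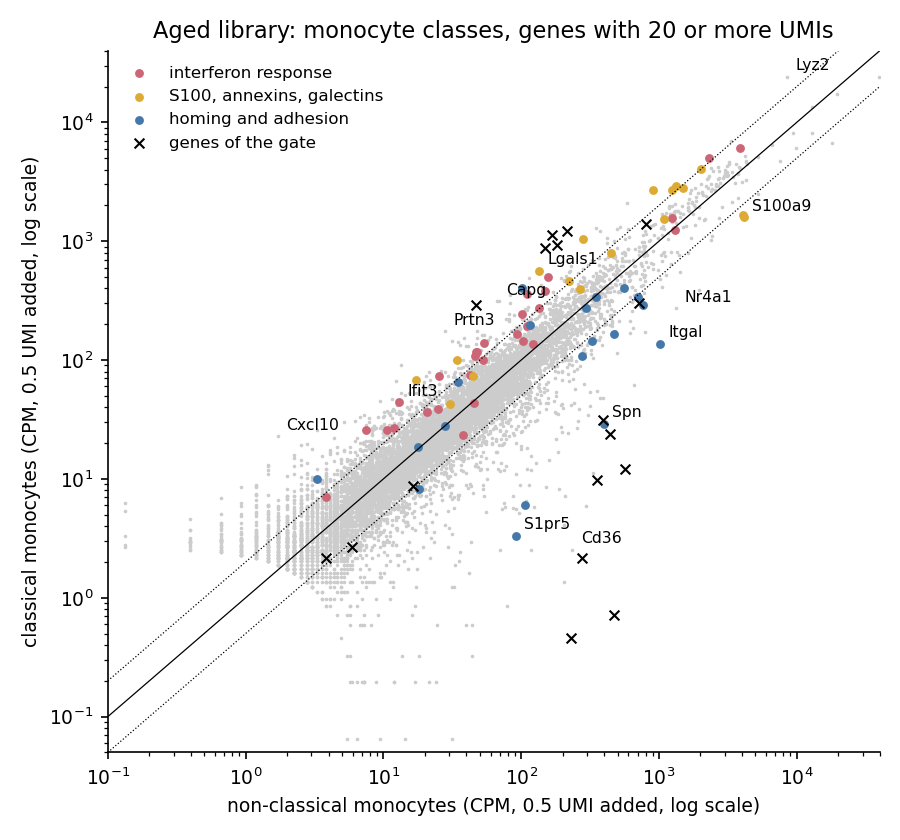
CPM of each gene in aged classical (y axis) against aged non-classical monocytes (x axis), both on log scales, with dotted lines at 2-fold and the interferon, S100 and homing lists coloured. Genes of the gate are drawn as crosses, and interferon-response genes lie mostly above the diagonal while homing genes lie on both sides of it.

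Apart from the gate genes, those highest in classical over non-classical monocytes included Prtn3, the granule protease proteinase 3, at 176 against 27.8 CPM, 6.32 times higher (5.20 to 7.81). Gas7, a cytoskeletal adaptor, stood at 91.4 against 13.2 CPM, 6.85 times (5.19 to 9.41), and Capg, an actin-capping protein, at 313 against 67.1, 4.65 times (4.09 to 5.32). Cxcl10, an interferon-induced chemokine, stood at 23.0 against 1.59 CPM, 13.4 times (6.52 to 40.0), but only 4.02% of the classical cells held a UMI of it. Nt5dc2 (25.7 against 3.17 CPM), Crybb1 (19.1 against 2.38) and the kinase Dyrk3 (12.9 against 1.32) were 7.80, 7.61 and 8.93 times higher. Where each cell counts equally, as in the ratio of the mean CPM of cells, these ratios were larger: 11.9 for Prtn3, 13.5 for Gas7, 7.97 for Capg and 19.0 for Nt5dc2.

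The genes lowest in classical against non-classical monocytes had little RNA in the classical class. The scavenger receptor Cd36 stood at 2.48 CPM in classical against 235 CPM in non-classical monocytes, a ratio of 0.0108. The ion transporter Slc12a2 stood at 1.31 against 204 CPM, the beta-1 adrenergic receptor Adrb1 at 0.783 against 78.5, and the survival genes Bcl2a1b and Bcl2a1d at 5.87 against 296 and 4.05 against 204. The last pair are close copies of each other, so the split of reads between them is uncertain. Tgm3, a transglutaminase, had 0 UMIs in classical monocytes and 118 (31.2 CPM) in non-classical ones, at least 79.7-fold lower when 3 counts are taken as the floor.

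The transcription factor list, of genes of monocyte development, had 2 of 21 members 2-fold higher and 4 lower, and the members beyond 2-fold were known regulators of either class. Nr4a1, the factor that non-classical monocytes need, stood at 273 CPM in classical and 1328 in non-classical monocytes, a ratio of 0.206 (0.195 to 0.216). Pou2f2 was at 173 against 794 CPM, Klf2 at 520.2 against 1126 and Klf4 at 205 against 453, all at under 0.5 of the non-classical level. Cebpa, the factor of myeloid progenitors, was 2.29 times higher in classical monocytes (150.3 against 65.6 CPM). Spi1, which encodes PU.1, was at 0.581 and Cebpb at 0.624 of the non-classical level, and Irf8 was at 1.30, all inside 2-fold. Gfi1, a repressor of the granulocyte lineage, had no UMI in classical monocytes.

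Homing and adhesion genes were mostly lower in classical monocytes. Of 19 members 2 were 2-fold higher and 10 lower, with a median log2 ratio of -1.04. Among the lower members Itgal, the LFA-1 chain on which patrolling depends, stood at 137 against 1025 CPM, a ratio of 0.134 (0.125 to 0.143). Spn, which encodes CD43, a standard surface marker of non-classical monocytes, stood at 29.1 against 399 CPM, Pecam1 at 6.00 against 106, and the sphingosine phosphate receptor S1pr5 at 3.26 against 91.7. The fractalkine receptor Cx3cr1 was at 0.386 of the non-classical level and Cxcr4, which retains cells in marrow, at 0.444, while Itgam, the CD11b chain common to both, was at 0.974.

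**Figure D3:**
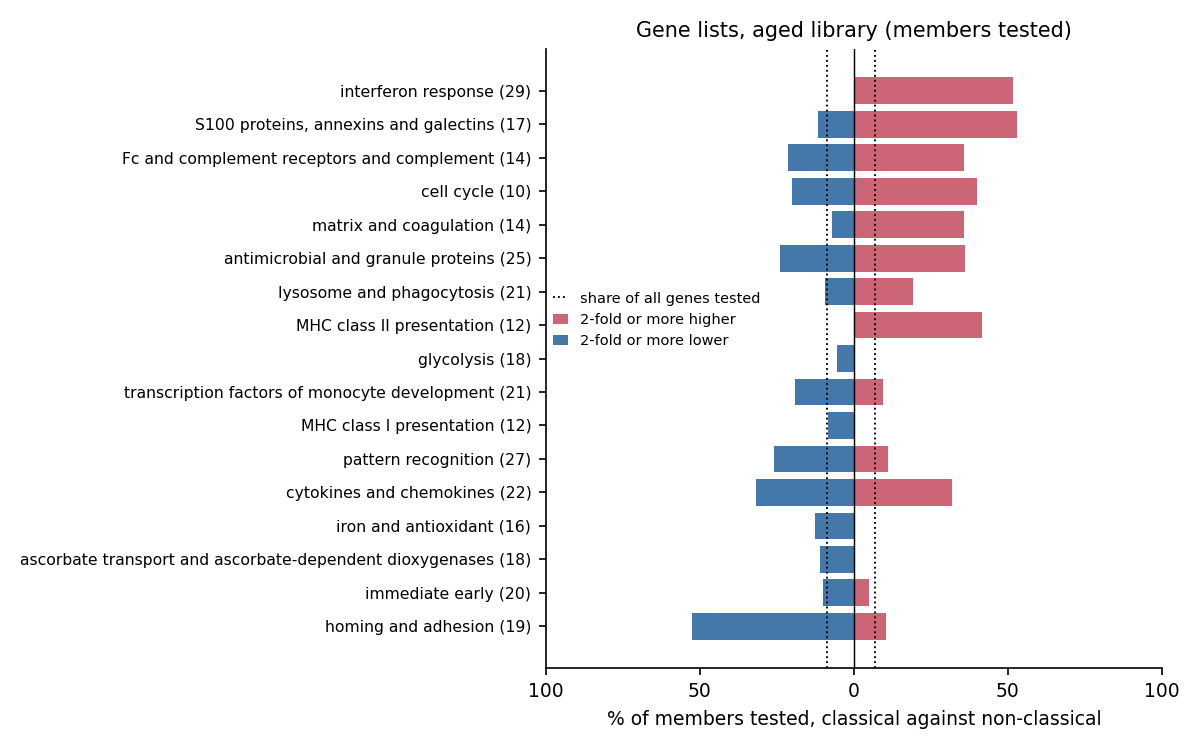
Percent of the tested members of each gene list (x axis) that were at least 2-fold higher or lower in aged classical than in aged non-classical monocytes, lists ordered by their median log2 ratio and gate genes left out. Dotted lines mark all genes, 6.87% higher and 8.77% lower; the interferon list has 15 of 29 members higher and 0 lower, and the homing list 2 of 19 higher and 10 lower.

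Interferon-response genes had the highest median of the 17 function lists, lists of cell type markers aside. Of 29 members 15 were 2-fold higher and 0 lower, median log2 ratio 1.05. Ifit3, an antiviral RNA-binding protein, stood at 44.3 CPM in classical against 13 in non-classical monocytes, 3.39 times higher (2.53 to 4.71), and Ifit2 at 25.6 against 7.40, 3.40 times (2.32 to 5.34). Slfn5, a schlafen family member, was at 359.5 against 111 CPM, 3.24 times higher (2.93 to 3.61), and Ms4a4c, a membrane protein of the MS4A family, at 503 against 158, 3.19 times (2.93 to 3.49). Bst2 (tetherin), Isg15 (a ubiquitin-like modifier) and the GTPase Ifi47 were 2.58, 2.55 and 2.91 times higher. The list was not uniform: Rsad2 (viperin) was at 0.960 and Ly6a at 0.618 of the non-classical level.

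The promoters of the 4 list members with the highest ratios are shown because these genes were higher together and the response to interferon is known to act through factors that bind a pair of GAAA half-sites with any 2 bases between them. The windows run from 250 bases before to 50 after a start site given by RefSeq, on the plus strand of GRCm38.p6. For Slfn5 and Ms4a4c that site lies downstream of the outermost start in the GENCODE annotation, 82951349 and 11404770. Capitals mark every match of GAAA, any 2 bases and GAAA on either strand. Ifit3 lies at chr19:34583279-34583578, Slfn5 at chr11:82951852-82952151, Ifit2, for which 1 of 2 listed promoters is shown, at chr19:34550444-34550743 and Ms4a4c at chr19:11407411-11407710.
Ifit3: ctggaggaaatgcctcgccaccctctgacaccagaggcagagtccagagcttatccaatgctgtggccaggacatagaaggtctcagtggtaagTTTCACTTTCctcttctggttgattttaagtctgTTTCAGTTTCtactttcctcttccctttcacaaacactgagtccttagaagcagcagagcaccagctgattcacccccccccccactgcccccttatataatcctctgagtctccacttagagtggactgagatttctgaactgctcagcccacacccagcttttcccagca
Slfn5: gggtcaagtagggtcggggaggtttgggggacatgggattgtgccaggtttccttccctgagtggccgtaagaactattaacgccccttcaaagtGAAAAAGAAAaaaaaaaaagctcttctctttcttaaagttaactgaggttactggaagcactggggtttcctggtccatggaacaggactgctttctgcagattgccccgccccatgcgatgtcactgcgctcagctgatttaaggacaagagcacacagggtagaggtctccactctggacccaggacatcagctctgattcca
Ifit2: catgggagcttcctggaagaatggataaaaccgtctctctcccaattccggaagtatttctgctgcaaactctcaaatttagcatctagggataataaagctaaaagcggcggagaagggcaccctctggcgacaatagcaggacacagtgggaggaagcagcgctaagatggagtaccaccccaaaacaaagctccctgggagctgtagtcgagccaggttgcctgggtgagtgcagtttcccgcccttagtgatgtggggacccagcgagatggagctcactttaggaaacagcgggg
Ms4a4c: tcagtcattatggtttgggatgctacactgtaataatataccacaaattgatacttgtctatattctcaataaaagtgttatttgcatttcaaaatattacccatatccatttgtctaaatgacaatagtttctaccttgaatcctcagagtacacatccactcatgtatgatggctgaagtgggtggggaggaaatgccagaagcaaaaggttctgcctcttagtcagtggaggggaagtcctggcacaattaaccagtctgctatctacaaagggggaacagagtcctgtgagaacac
Ifit3 has 2 matches and Slfn5 1, while Ifit2 and Ms4a4c have none in these letters. Over all 32851 promoters of the same length 3.44% hold a match, and of their 27025 genes 3.99% hold a match. Of the 21 interferon-response genes with a listed promoter, 14 hold 1 (66.7%), and of the 11 that were 2-fold higher in classical monocytes 5 do (45.5%), so the members higher in classical monocytes did not hold the match more often than the whole list. Over all genes 2-fold higher in classical monocytes with a promoter 6.96% hold it, against 4.22% of all genes compared. The same search for TTGCNNAA, a C/EBP motif, gave 14.3% against 10.1%, and for GAGGAAGT, a PU.1 motif, 5.13% against 4.31%. Among genes 2-fold lower in classical monocytes 3.87% held the GAAA pair, 11.8% the C/EBP motif and 6.35% the PU.1 motif. The PU.1 motif was thus more common in the lower than in the higher genes. Except for the 3.44% of promoters, these are shares of genes, matched on either strand. The motifs were searched one by one and may overlap.

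S100 proteins, annexins and galectins had 9 of 17 members 2-fold higher and 2 lower, median log2 ratio 1.02. The galectin Lgals1 stood at 564 against 135 CPM, 4.18 times higher (3.82 to 4.60), and S100a10, the annexin partner p11, at 1050.3 against 280.5, 3.74 times. Vim, the intermediate filament vimentin, stood at 2684 against 899 CPM and Lgals3, the galectin Mac-2, at 2678 against 1237. S100a4 was 1.85 times higher and so just inside 2-fold. The 2 lower members were S100a8 and S100a9, the subunits of calprotectin, at 0.411 and 0.387 of the non-classical level. Without the cells of either class that held at least 3 of 6 neutrophil genes, S100a8 was 1.60 times the non-classical level and S100a9 at 0.684. The levels left, 142 and 62.4 CPM in classical monocytes, were below those in B cells of the library, which were not limited in neutrophil genes. No direction is read for either gene.

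Receptors for antibody and complement were divided between the classes, with 5 of 14 members higher and 3 lower. Fcgr1, the high-affinity receptor CD64, stood at 161 against 51.8 CPM, 3.1 times higher in classical monocytes, and the complement regulator properdin, Cfp, at 130.2 against 41.0. Fcgr4, the receptor of the non-classical monocyte, stood at 47.6 against 389.9 CPM, a ratio of 0.122 (0.109 to 0.137), and Itgax, the CD11c chain, at 5.09 against 97.0. Pattern recognition genes were at 3 of 27 higher and 7 lower, and the 7 lower ones are not named here. On the higher side the scavenger receptor Msr1 stood at 56.0 against 18 CPM. The endotoxin co-receptor Cd14, at 348 against 179.5, was higher but inside 2-fold.

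Among antimicrobial and granule proteins, 9 of 25 were 2-fold higher and 6 lower. Wfdc17 stood at 1288 against 349 CPM, 3.69 times higher, and the collagenase Mmp8 at 222 against 80.9. Haptoglobin, Hp, was higher but inside 2-fold, at 1049 against 562. Elane, neutrophil elastase, a gene of granulocyte and monocyte progenitors, had 48 UMIs in classical and 0 in non-classical monocytes. Leaving out cells with neutrophil genes in both classes raised the ratio of Prtn3 to 8.24, of Mmp8 to 6.28 and of Lcn2 from 0.896 to 5.54. Prtn3 and Mmp8 were thus higher in classical monocytes with and without such cells, and Lcn2 only without them.

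Secreted signals went both ways, with 7 of 22 cytokines and chemokines 2-fold higher and 7 lower. Ccl2, the ligand of CCR2, stood at 314 against 69.0 CPM, 4.55 times higher in classical monocytes (4.01 to 5.20), and Il18 and Ccl9 were 2.36 and 2.32 times higher. Il1b stood at 211 against 618 CPM and Tnf at 6.14 against 20.4, both lower. The Il1b level depends on 90 classical monocytes with at least 3 of 6 neutrophil genes, described further on. They held 83.5% of its UMIs, at 1156 CPM against 41.3 in the other 631 cells. Without such cells in both classes the median of the list also changed sign, as given at the end. Il10 had 0 UMIs against 15 (3.97 CPM), at least 10.1-fold lower with 3 counts as the floor. In the matrix and coagulation list 5 of 14 were higher and 1 lower, led by Mmp19, a metalloproteinase, at 5.80 times the non-classical level, Thbs1, thrombospondin, at 489 against 113 CPM and Tgfbi at 544 against 257; the clotting initiator F3 had no UMI.

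Antigen presentation differed by class of molecule. Of the 12 members of the MHC class II presentation list 5 were 2-fold higher and 0 lower. They were Ciita, H2-DMa and H2-DMb1 and, as genes of dendritic cells that the list also holds, Cd209a and Flt3. The peptide exchange chain H2-DMa stood at 243 against 80.9 CPM and H2-DMb1 was 2.44 times higher, while H2-Aa was at 0.913 and the invariant chain Cd74 at 0.724. Flt3, a growth factor receptor of dendritic cell progenitors, stood at 30.7 against 6.08 CPM. MHC class I genes had 0 of 12 higher and 1 lower, with H2-K1 at 0.459 and B2m at 0.576 of the non-classical level. Lysosomal genes had 4 of 21 higher and 2 lower, with cathepsin C (Ctsc) at 614 against 229 CPM, the cholesterol carrier Npc2 at 1323 against 519.7 and cathepsin B (Ctsb) at 546 against 1423.

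Metabolic and ascorbate-linked lists had no member 2-fold higher and few lower. Glycolysis had 0 of 18 members higher and 1 lower, the lactate exporter Slc16a3 at 45.0 against 174 CPM. Iron and antioxidant genes had 0 of 16 higher and 2 lower, among them Slc11a1, the phagosomal metal transporter, at 54.2 against 179.5. Of the genes of ascorbate transport and of the dioxygenases that use ascorbate as a cofactor, 0 of 18 were higher and 2 lower. The transporter Slc23a2 stood at 9.14 against 8.20 CPM, the collagen prolyl hydroxylase P4ha1 at 26.1 against 92.0 and the DNA demethylase Tet2 at 70.4 against 134. Cell cycle genes had 4 of 10 higher and 2 lower at low counts, with Cdk1 at 0, and immediate early genes 1 of 20 higher and 2 lower.

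Against neutrophils of the aged library the contrast was wider. Of 9952 genes 5739 (57.7%) were at least 2-fold apart, 4584 higher (46.1%) and 1155 lower (11.6%) in classical monocytes, and the median log2 ratio over all genes was 0.85. Of the calls 79.9% were higher; with median-of-ratios scaling, which brings the median to 0.01, 52.1% were (2638 higher, 2424 lower). Lysosomal genes had 16 of 21 members higher and 2 lower and the MHC class II presentation list 9 of 12 and 0, while interferon-response genes, with 14 of 29 and 4, were near the share of all genes. In the other direction 13 of 22 cytokines and 13 of 20 immediate early genes were lower. Tmem176b, an ion channel of myeloid cells, stood at 163 against 1.39 CPM and Ms4a4c at 503 against 6.24, 78.4 times higher. Saa3, an acute-phase protein, stood at 98.6 against 1.04 CPM. Camp, Ltf and Ngp, proteins of neutrophil secondary granules, stood at 8.75 against 4647, 1.83 against 1268 and 20.1 against 5869 CPM. Granule genes were thus not of 1 kind: Prtn3 stood at 176 CPM in classical monocytes against 3.82 in neutrophils, and Mmp8 at 222 against 891.

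Classical monocytes that carried 1 or 2 non-classical genes lay only slightly toward the non-classical class in genes the rule did not use. Over cells with 0, 1 and 2 of these genes (384, 234 and 103 cells, median UMIs 9950, 10198.5 and 9624), Itgal stood at 110.4, 143 and 218 CPM, and in non-classical monocytes at 1025. The ratio of 2 to 0 was 1.98 (1.68 to 2.31). Nr4a1 stood at 236, 270.4, 407 and 1328 CPM over the same 4 sets, ratio 1.72 (1.54 to 1.93), and Fcgr4 at 38.4, 54.5, 64.8 and 389.9. Genes of the classical program differed little between these sets. Lyz2 stood at 24499, 24192, 23572 and 8552 CPM and Chil3 at 2026, 2095, 2249.6 and 586. Cd36 stayed at 1.76, 3.16 and 3.50 CPM below the 235 of non-classical monocytes. Cxcl10 was the exception among the genes followed, at 13.8, 22.1 and 56.9 CPM over the classical sets and 1.59 in non-classical monocytes. The non-classical class pools cells with 3 to 7 of these genes, so the step to it follows in part from the rule.

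Within the aged classical monocytes, lists differed in how they were spread over cells. After thinning to 1000 UMIs, granule genes had a median of 42 UMIs per cell (2 to 219) with a variance 7.66 times the mean, and interferon-response genes 17 (1 to 57) with 3.20 times. MHC class II genes had a median of 0 (0 to 48) with 12.7 times, and 411 of 721 cells held none. Cell cycle genes had a median of 1 (0 to 6) with 1.23 times, near the 1 that counting alone gives. Of the 5 lists measured in this way, granule and MHC class II genes had the widest spread over cells, and both had tails.

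A first tail held neutrophil RNA. Of 6 neutrophil genes that the rule did not use (Csf3r, Cxcr2, Mmp9, Il1r2, Hdc and Trem1), 90 of the 721 aged cells held at least 3 (12.5%), and 32 held all 6, while 631 held 0 to 2. In the AA library 1 of 21 cells held at least 3 (4.76%) and in the young library 0 of 2. S100a8 stood at 10157 CPM in the 90 cells and 142 CPM in the 631, and S100a9 at 10143 and 62.4 CPM. The 90 cells held 92.8% of all S100a8 UMIs of aged classical monocytes, 96.7% of S100a9, 97.3% of the neutrophil peptide Retnlg and 83.5% of Il1b. Of monocyte genes they held about their share by number: 14.5% of Ccr2, 13.7% of Lyz2 and of Chil3, and 15.9% of Prtn3. The summed classical markers stood at 6188 CPM in them and 6571 in the others, and the neutrophil markers at 4763 and 487. These cells thus held both programs, with Ly6g at 22 UMIs against 0 in the rest. Their median UMIs were 11854 against 9808. Scrublet called 5 of the 90 cells and 5 of the 631 cells doublets, a larger share of the 90. In the same library S100a8 stood at 1057 CPM in B cells and 748 in T cells, which do not make it. Those cells were not limited to at most 2 neutrophil genes, so their levels are no floor for the 631 cells. A UMI of S100a8 was found in 55.5% of the 631 cells. The free RNA of the library held S100a8 at 3469.6 CPM and was estimated at 1.20% of the UMIs of aged classical monocytes. The source of the 142 CPM was not tested, and it is not read as expression. Whether the 90 barcodes were pairs of cells was not tested beyond the doublet call.

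**Figure D4:**
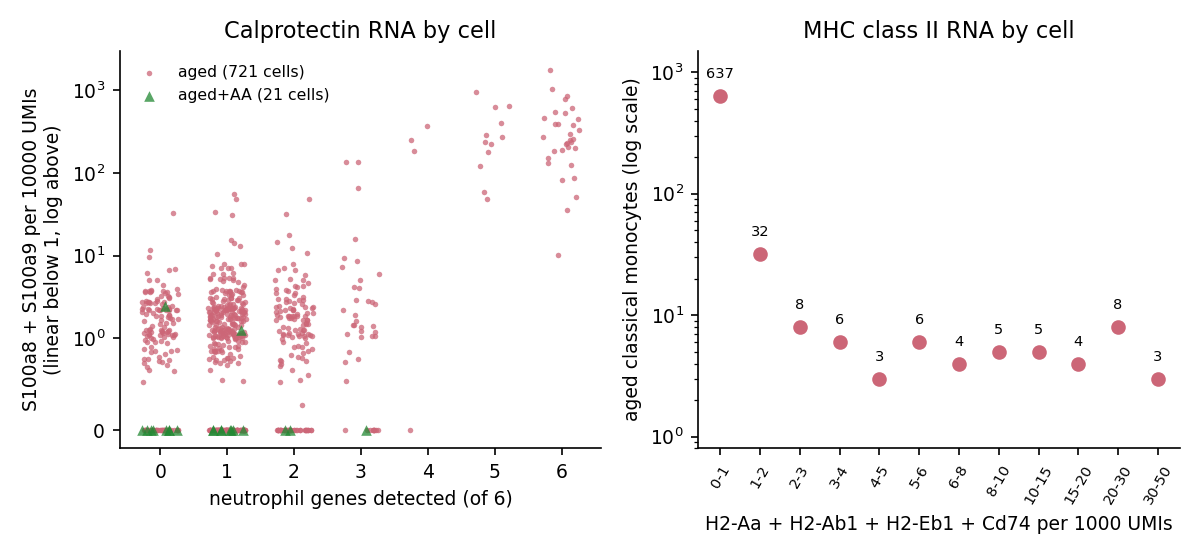
Left, S100a8 and S100a9 UMIs per 10000 (linear below 1, log above) in each of 721 aged and 21 AA classical monocytes by the number of 6 neutrophil genes found. Right, number of aged classical monocytes (log axis) by UMIs of 4 MHC class II genes per 1000; 637 cells lie below 1 and a tail of few cells runs to 50.

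A second tail held red cell RNA. Haemoglobin made up over 5% of UMIs in 75 of 721 aged cells (10.4%), up to 52.1%, and in 1 of 21 AA cells, at 42.0%. The erythroid list stood at 300177 CPM in the 75 cells and 3333 CPM in the others, and the classical markers at 4915 and 6761 CPM, with median UMIs of 13564 and 9807.5. The part of haemoglobin in the lower CPM of other genes in these cells was not tested.

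The last tail held MHC class II RNA. Among aged cells with at most 2 neutrophil genes, H2-Aa, H2-Ab1, H2-Eb1 and Cd74 together made up less than 1 per 1000 UMIs in 556, 1 to 5 in 44, 5 to 10 in 13 and 10 or more in 18. Over these 4 sets Cd209a, the lectin DC-SIGN of monocyte-derived dendritic cells, stood at 2.10, 41.9, 127 and 128 CPM, and Flt3 at 24.3, 64, 119.9 and 101. Ciita, the master regulator of MHC class II, stood at 1.75, 15.5, 59.9 and 95.7 CPM, Cd7 at 11.2, 124, 195 and 149, and Klrd1, a lectin receptor, at 10.8, 50.8, 52.4 and 165. All of these were higher in every set above the first. Genes of the classical program were lower there: Fn1 stood at 1230, 574, 292 and 186 CPM, Chil3 at 2318, 876, 464 and 324, and Lyz2 at 25495, 21469, 17896 and 13402. Ccr2 was flat at 939, 998, 802 and 936 CPM and Ly6c2 stood at 1252, 1166, 667 and 761.

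The B cell gene Cd79a, which the rule capped, stood at 8.75, 8.83, 7.49 and 5.32 CPM over the same sets and Xcr1 at 0 in all. Other B cell genes, which the rule did not cap, were higher: in the 31 cells at 5 or more against the 556 below 1, Cd79b stood at 43.5 against 15.7 CPM (2.85 times, 1.45 to 4.88) and Cd22 had 6 UMIs against 9 (12.2 times, 3.47 to 37.3). Siglech, a gene of plasmacytoid dendritic cells, stood at 1.22, 35.3, 7.49 and 5.32 CPM over the 4 sets. Their part in the MHC class II RNA was not tested. Between the 31 cells at 5 or more and the 556 below 1, 8996 genes were compared, of which 9.82% were 2-fold higher and 8.55% lower. Of the dendritic cell markers 5 of 6 were higher, and lower were 8 of 16 matrix genes, 10 of 23 granule genes, 10 of 23 pattern recognition genes and 9 of 21 cytokines. The 8 lower matrix genes include Fn1, F13a1 and Vcan, which the gate used. Median UMIs were 9870 and 9785.5 and the doublet calls 0 and 4. Of all 721 aged cells 35 stood at 5 or more, as did 1 of 21 AA cells and 1 of 2 young cells.

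With AA, the 21 classical monocytes of the aged mice had none of the 6 classical markers beyond 2-fold of the 721 cells given PBS. They had less RNA of some granule genes. Ly6c2 was at 1.09 of the PBS level, Chil3 at 0.968, Vcan at 0.930, Ccr2 at 0.803 (0.674 to 0.942), F13a1 at 0.718 (0.593 to 0.856) and Fn1 at 0.684 (0.576 to 0.80), so 1 of the 6 was above 1, and the median log2 ratio was -0.21. Lyz2 was at 1.19. Of 9478 genes 1969 (20.8%) were at least 2-fold apart, 969 higher (10.2%) and 1000 lower (10.6%) with AA. The 21 cells held 195803 UMIs in all against 7660386, and the share fell with the depth of the gene: among 2146 genes with at least 500 UMIs 59 were 2-fold apart (2.75%), 13 higher and 46 lower. In simulated counts at these depths, 17.3% of unchanged genes with at least 20 UMIs were 2-fold apart. The 1969 are therefore not read as genes that changed. The intervals treat the UMIs of a library as independent, and with 21 cells a single cell can carry a gene.

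The genes lowest with AA were those of the cells with neutrophil genes. S100a8 stood at 1672 CPM in aged and 5.11 CPM (1 UMI) in AA cells, S100a9 at 1602 and 10.2, and Retnlg at 364 and 10.2. Wfdc21 had 681 UMIs in aged and 0 in AA cells, at least 5.80-fold lower with 3 counts as the floor. Free RNA moved in the same direction, with S100a8 at 3469.6 CPM in the aged and 654 in the AA library. Among cells with at most 2 neutrophil genes (631 aged, 20 AA), S100a8 stood at 142 and 5.46 CPM and Retnlg at 0.713 of the aged level. Both S100a8 levels lay below the 1057 CPM of B cells in the aged library. Those B cells were not limited to at most 2 neutrophil genes, so their level is no floor here. Free RNA was estimated at 1.20% of the UMIs of aged and 1.23% of those of AA classical monocytes. The AA level of S100a8 rests on 1 UMI. The S100a8 levels are not read as a difference in expression, and their source was not tested.

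Some granule genes were also lower in the cells with few neutrophil genes. Among the same 631 and 20 cells Prtn3 stood at 175 CPM in aged and 32.8 in AA cells, a ratio of 0.203 (0.0687 to 0.409), with a UMI in 68.0% and 20% of cells. Mmp8 stood at 206 and 32.8 CPM, ratio 0.172 (0.0581 to 0.346), with a UMI in 68.0% and 20% of cells, and Saa3 at 93.8 and 5.46 CPM. These AA values rest on few counts: all 21 AA cells together held 8 UMIs of Prtn3, 7 of Mmp8 and 1 of Saa3. In the free RNA of the aged library Prtn3 was at 14.7 CPM. What set the differences was not tested. Over the antimicrobial and granule list 1 of 24 members was 2-fold higher and 10 lower with AA, with a median log2 ratio of -0.53. Those values cover all 21 and 721 cells, and so include the 90 aged cells with neutrophil RNA. The summed list was nearly equal, at 42011 CPM in aged and 41409 in AA cells. Over the S100 list 0 of 17 were higher and 2 lower.

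Single genes were higher with AA. Among cells with at most 2 neutrophil genes Apoe, the lipid carrier, stood at 1376 CPM in aged and 3347 in AA cells, 2.43 times higher (2.24 to 2.64), and Trf, transferrin, at 108 and 344, 3.21 times (2.42 to 4.12). Klf4, a factor of monocyte differentiation, stood at 211 and 442 CPM, 2.11 times higher (1.65 to 2.62), with a UMI in 78.8% of aged and 100% of AA cells. A check without the AA cell with the most UMIs of each gene used all classical monocytes, not only those with few neutrophil genes. There the ratios were 1.99 for Apoe, 2.72 for Trf and 1.91 for Klf4. The non-classical marker list was also higher with AA, with 4 of 11 members 2-fold higher and 0 lower (median log2 ratio 0.73), or 2 of 7 and 0 without the gate genes (0.31). The 4 were Treml4, Adgre4, Spn and Cd36, with 4, 14, 11 and 2 UMIs in AA cells. Klf4 was itself higher in non-classical than in classical monocytes, at 453 against 205 CPM. The macrophage marker list had 0 of 3 members higher and 1 lower (-0.69). Of the transcription factor list 3 of 21 members were 2-fold higher and 1 lower with AA, not far from the background.

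**Figure D5:**
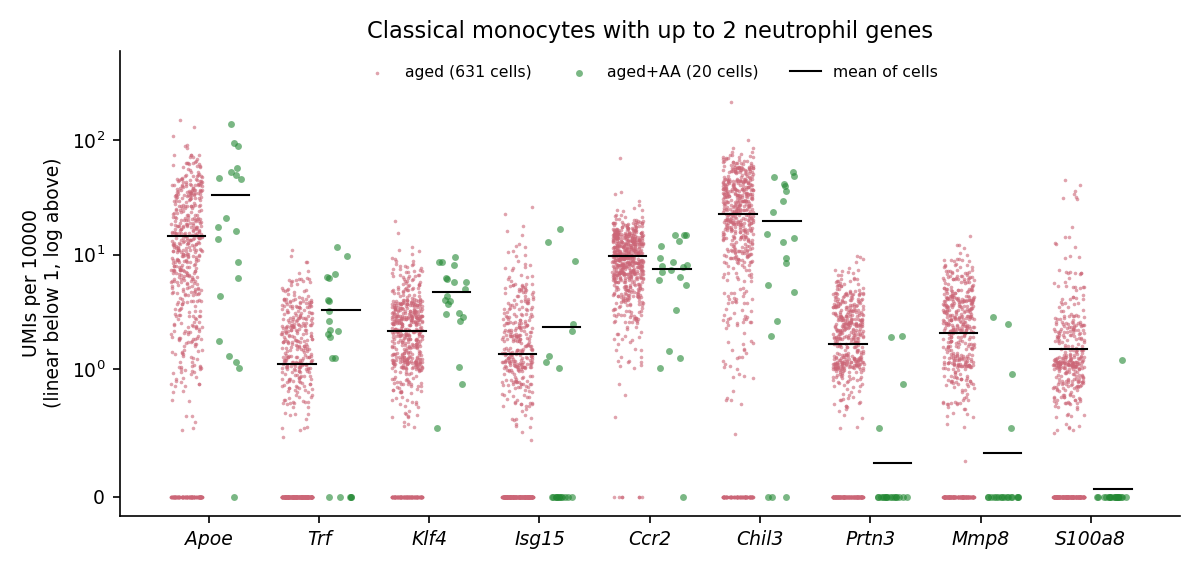
UMIs per 10000 of 9 genes in each of 631 aged and 20 AA classical monocytes with at most 2 neutrophil genes, the black bar being the mean of cells. Apoe, Trf and Klf4 have higher means with AA, Prtn3, Mmp8 and S100a8 lower ones, and single cells overlap for every gene.

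Some interferon-response genes with AA rested on single cells. Of 29 members 8 were 2-fold higher and 1 lower with AA, against a background of 10.2% and 10.6%. Isg15 stood at 138 CPM in aged and 296 in AA cells, 2.17 times higher, but a UMI was found in 53.1% of aged and 42.9% of AA cells, and 24 of its UMIs with AA lay in 1 cell. Without that cell the ratio over all AA and aged classical monocytes was 1.41. Each without its own top cell, the ratio was 1.72 for Ifit1, 2.18 for Ifit2, 1.28 for Ifit3 and 3.43 for Ifit3b. In the same way it was 1.23 for Rsad2, 1.59 for Gbp2 and 1.71 for Irf7, the interferon regulatory factor. Of the 8 members, Ifit2 and Ifit3b, with 23 and 7 UMIs, thus stayed beyond 2-fold. The ascorbate list, the one nearest to the treatment, had 0 of 17 members 2-fold higher and 0 lower, median log2 ratio 0.07.

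The 2 young cells are given only as they stand. They held 8435 and 11032 UMIs. Both held Ccr2 (9 and 9 UMIs), Fn1 (11 and 4), Ly6c2 (2 and 7) and Lyz2 (257 and 368), and neither held S100a8 or S100a9. Chil3 stood at 0 in the first and 62 UMIs in the second. The second also held C1qa, C1qb and C1qc, the complement chains of macrophages (10, 10 and 6 UMIs), and H2-Aa and Cd74 (23 and 103), all of which were at 0 in the first, so the pair did not resemble each other and no level is given for young classical monocytes.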

How the data were processed

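The deposited files hold, per the file headers and the labels' protocols, Cell Ranger UMI counts of 3' ends by gene and barcode (6794880 barcodes, 32285 genes, unfiltered). UMI counts of 3' ends need no scaling by gene length. The submitters' processing notes name Cell Ranger, Seurat 3.1.0 and mm10. Counts were read with Python 3.11.15, numpy 2.4.6, scipy 1.17.1 and pandas 2.3.3, doublets were called with Scrublet in scanpy 1.11.5, and figures were drawn with matplotlib 3.10.9. UMIs were summed over the cells of a class and library and given per 1000000 UMIs (CPM). Ratios are of CPM with 0.5 added to each count, with the exact conditional 95% interval. A gene was compared with at least 20 UMIs in both classes together and called at 2-fold. For shares of cells holding a gene across cell classes, each cell was thinned to 1000 UMIs (shares within the classical monocytes, with AA included, are of whole cells), which left out 0 classical and 5 non-classical monocytes, 22 neutrophils, 17 B cells and 7 T cells. The scripts were tested on simulated data.

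Neutrophils were barcodes with at least 3 of Csf3r, Cxcr2, Mmp9, Il1r2, Hdc and Trem1 and at most 1 of Ccr2, F13a1, Fn1, Ms4a6c and Vcan. B cells held at least 3 of 6 B cell genes, Cd79a, Cd79b, Ms4a1, Cd22 and Fcmr among them, with no Csf1r, and T cells at least 2 UMIs of the Cd3 genes, at most 1 of Cd79a and no Csf1r. Named genes were those of the gate and the markers, the 15 most abundant, the 12 (against non-classical monocytes) or 6 (other contrasts) furthest each way with at least 50 UMIs, ranked by the bound nearest to 1, and from each list the most abundant, the extremes and the members at 0; the extremes leave out mitochondrial, ribosomal, haemoglobin, immunoglobulin, T cell receptor, sex-linked and clone-named genes. Other genes named, in the splits of cells and with AA above all, were chosen after their values were seen. Some genes that the rule names are not reported here. The members and gene lists were chosen with earlier results of these data known. Alternatives fixed at the outset changed the gate, the UMI minimum, the scaling and the use of means over cells; leaving out barcodes with neutrophil genes, haemoglobin or a barcode of another library, and a minimum of 500 UMIs, were added after seeing the data.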

Additional observations from a re-analysis of the deposited data

Results flagged for a closer look

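The number of classical per non-classical monocytes differed between the libraries in direction: its log2 was -4.58 in the young library, 0.38 in the aged library and -2.22 in the aged library given AA. Classical monocytes were thus the smaller class in the young and AA libraries and the larger in the aged library given PBS. With 1 library per group the difference was not tested.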

How the results depend on the processing

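No paired analysis was possible because each group has 1 library. With no non-classical gene allowed the share of classical monocytes was 0% (young), 3.76% (aged) and 0.0854% (AA), and with cells thinned before the gate 3.48% (aged) and 0.0702% (AA); over all settings the ratio of AA to aged shares lay between 0.0202 and 0.0351. The count of genes 2-fold apart follows the UMI minimum. Against non-classical monocytes it was 4317 (1549 higher, 2768 lower) at 1 UMI and 882 (376 and 506) at 100. Against neutrophils it was 3738 (3024 and 714) at 100 UMIs, with 2823 lower at 1 UMI, and median-of-ratios scaling gave 2638 higher and 2424 lower. With AA it was 6070 (5070 higher) at 1 UMI, 767 (242 and 525) at 100 and 59 (13 and 46) at 500. The median log2 ratio of cytokines to non-classical monocytes (-0.06) turned to 0.26 at 100 UMIs, 0.39 as a mean of cells and 0.69 without cells with neutrophil genes, and that of MHC class II genes (0.29) to -0.077 at 100 UMIs and -0.12 without those cells; the cause was not tested. None of the 24 genes furthest from non-classical monocytes and 12 from neutrophils came inside 2-fold under any alternative run. Of the genes reported here as furthest apart with AA, Isg15 (1.65 as a mean of cells, 1.35 without haemoglobin-rich cells), Irf7 (1.93) and Retnlg (0.713) did, and none changed direction; leaving out the top AA cell of a gene also brought Apoe (1.99), Klf4 (1.91) and Ifit3 (1.28) inside. The small number of cells, and so of UMIs in all, limits what can be read from the 21 AA and 2 young cells.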
